A study of Mus musculus with 12 samples.

Results

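Classical MHC class I and its peptide loading machinery were followed as 8 genes, chosen by name in the deposited gene table: H2-K1, H2-D1, B2m, Tap1, Tap2, Tapbp, Erap1 and Nlrc5. All 8 were present among the 26938 genes with a count, of 27457 in the table. The data are single-cell 5′ RNA profiles of MC38 tumors, a mouse colon carcinoma line of C57BL/6J (B6) origin, grown under the skin of female mice 8 to 12 weeks old. The hosts were B6 itself or F1 offspring of B6 with CC001/UncJ, CC002/UncJ, CC007/UncJ, CC036/UncJ, CC075/UncJ, CC079/TauUncJ or CC080/TauUncJ, inbred Collaborative Cross lines of mixed founder ancestry. Every F1 host thus carried at least 1 B6 copy of each autosomal gene. Mice received 1 intraperitoneal dose of 200.0 µg of an isotype antibody (2A3) or an anti-PD-1 antibody (29F.1A12, aPD1), and tumors were taken 48 h later, frozen, and sorted so that most cells carried CD45 and a small share did not.

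The text of the study, not the sample labels, calls CC001, CC002 and CC075 hosts responders to aPD1 and CC036, CC079 and CC080 hosts non-responders. This gave 10 isotype and 10 aPD1 tumors from responder strains (15734 and 22598 cells) and 9 isotype and 9 aPD1 tumors from non-responder strains (19780 and 17756 cells). B6 (3 tumors per treatment) and CC007 (2 per treatment) hosts had no class and entered only the comparisons between strains. Response class was constant within a strain, so tumors of 1 strain are replicates of the strain and not independent replicates of the class. Each library pooled 4 specimens marked by hashtag, an isotype and an aPD1 tumor of each of the strains in the pool. The hashtags of the 2 treatments were distinct sets throughout, and hashtag and treatment cannot be told apart.

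MHC class I molecules show peptides from inside a cell to CD8 T cells and natural killer cells. A polymorphic heavy chain (in these genes H2-K1 or H2-D1) pairs with the invariant light chain B2m. Peptides are carried into the endoplasmic reticulum by the transporter TAP, a dimer of Tap1 and Tap2, trimmed there by the aminopeptidase Erap1, and loaded with the help of tapasin (Tapbp). Nlrc5 is the transactivator of the class I promoters, and most of these genes are known to be induced by interferon gamma.

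In the GRCm38 annotation, 5 of the 8 genes lie on chromosome 17 within 1.35 Mb, inside or next to the H2 complex. H2-K1 spans 17:33996017-34000347 on the minus strand, Tapbp 17:33915899-33929292, Tap1 17:34187553-34197225, Tap2 17:34203527-34216321 and H2-D1 17:35262730-35267499, with all but H2-K1 on the plus strand. The other three genes, all on the plus strand, are B2m at 2:122147686-122153083, Nlrc5 at 8:94434356-94527272 and Erap1 at 13:74639568-74693201. Some reads of the heavy chain genes cannot be placed uniquely. Of the 90-base windows of the annotated transcripts, 1.54% of those of H2-K1 (60 of 3886) and 4.25% of those of H2-D1 (110 of 2591) also occurred in another gene, mostly other class I genes or pseudogenes such as H2-Q10, H2-Q7 and H2-T23. The share was 0.338% for Tapbp and 0 for the other 5 genes. Over the first 500 bases of the transcripts, nearer the 5′ end that was read, it was 1.92% for H2-K1 and 5.31% for H2-D1. Only annotated reference transcripts were counted, so reads from other host haplotypes are not covered.

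The promoters of H2-K1, H2-D1 and B2m are shown because each of these 3 genes holds both of the motifs described here before its start site. Each runs from 250 bases before to 50 bases after a RefSeq transcription start (RefSeq, GRCm38.p6), 5′ to 3′ on the strand of the gene. Capitals mark matches to the interferon regulatory factor core (AANNGAAA) and to the kB motif, both searched on both strands. The regions are chr17:34000298-34000597 on the minus strand for H2-K1 (1 of its 2 start sites), chr17:35262844-35263143 on the plus strand for H2-D1 and chr2:122147437-122147736 on the plus strand for B2m.
H2-K1: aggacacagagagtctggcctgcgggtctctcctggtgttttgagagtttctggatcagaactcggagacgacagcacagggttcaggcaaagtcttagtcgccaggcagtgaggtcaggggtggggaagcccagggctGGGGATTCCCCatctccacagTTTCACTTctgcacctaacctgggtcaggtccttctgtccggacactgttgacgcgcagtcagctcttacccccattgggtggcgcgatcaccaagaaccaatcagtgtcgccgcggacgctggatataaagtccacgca
H2-D1: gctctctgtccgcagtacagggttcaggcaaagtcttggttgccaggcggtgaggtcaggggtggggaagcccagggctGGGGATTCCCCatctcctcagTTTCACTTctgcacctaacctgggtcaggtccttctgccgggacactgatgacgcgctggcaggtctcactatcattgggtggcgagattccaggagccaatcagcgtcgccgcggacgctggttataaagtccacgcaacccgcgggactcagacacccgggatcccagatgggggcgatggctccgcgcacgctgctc
B2m: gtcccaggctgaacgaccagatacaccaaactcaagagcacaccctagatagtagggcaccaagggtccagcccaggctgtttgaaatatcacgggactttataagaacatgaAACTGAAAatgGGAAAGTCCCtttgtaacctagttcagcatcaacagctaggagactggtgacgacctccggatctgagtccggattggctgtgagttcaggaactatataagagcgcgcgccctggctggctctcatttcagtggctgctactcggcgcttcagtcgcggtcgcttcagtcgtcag
In H2-K1 and H2-D1 the nearer of 2 overlapping kB matches began 20 bases before the factor core, and the 2 promoters were identical at 211 of 239 aligned bases (88.3%). In B2m the order was reversed, with the core 11 bases before the kB match. The core was present in 23.9% of 32851 RefSeq promoters of the same length and the kB motif in 8.46%. Promoters were found for 6 of the 8 genes, those of Tap2 and Nlrc5 excepted. Erap1 held the factor core 4 bases before its start, and Tap1 and Tapbp held neither motif. The gamma-activated sequence TTCNNNGAA, found in 8.3% of promoters, had no match in any of the 6 genes. A match is a description of the letters in the window, and no match says nothing of the factor.

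The series held 93126 cells from 48 tumors in 12 pools, with 53 to 3082 cells and 88816 to 17713491 UMIs per tumor and a median of 3333.5 UMIs per cell. The authors' 27 clusters were named here by marker genes. Of the 25 named clusters, 24 had their own marker list highest, the exception being cluster 4, a macrophage cluster with granulocytic markers. Monocytes and macrophages (68059 cells, below called macrophages) and T and NK cells (12021 cells) were the main populations. Cluster 20 (3411 cells) was not named. It had a low level of the leukocyte gene Ptprc (120.1 counts per 1000000 UMIs, CPM). Shisal2b, which the study used as a marker of MC38 cells, was at 97.8 CPM against at most 6.56 CPM in any other cluster. Of the 6 genes in the MC38 marker list, only Shisal2b is named by the study, and the others were chosen here. In cluster 20 Shisal2b was the only 1 of the 6 past the cut-off used there, and 2 of 6 fibroblast markers passed theirs. The unnamed cluster 25 had 5 of the 6 genes of the MC38 list past that cut-off, all chosen here, and no Shisal2b counts. Across libraries, 4990 barcode sequences recurred (10176 cells). Levels below are CPM of the UMIs summed over a cell group in a tumor. They are not scaled by gene length, so they are compared between samples and cell groups and not between genes.

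All 8 genes were detected in every one of the 27 clusters, and the heavy and light chain genes varied less between clusters than did Nlrc5. H2-K1 was highest in T/NK clusters 8 (2959 CPM) and 10 (2883 CPM), followed by T/NK cluster 23, migratory dendritic cells (cluster 11, 2592 CPM) and plasmacytoid dendritic cells (2503 CPM). It was lowest in the type 1 conventional dendritic cells (cDC1) of cluster 6, at 981 CPM, and in macrophage cluster 19 at 712 CPM, a 4.16-fold range. H2-D1 and B2m, by contrast, were highest in migratory dendritic cells, at 2243 and 4285 CPM, and lowest in cDC1 and cluster 19. The H2-D1 range was 3.43-fold and the B2m range 3.22-fold.

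With the counts of all tumors summed, Tap1 was highest in cDC1 at 234 CPM, ahead of migratory dendritic cells (192 CPM) and macrophage cluster 21 (185 CPM). In these summed counts the cDC1 of cluster 6 thus had the highest level of the transporter subunit Tap1 and the second lowest level of each heavy chain. Tap2 gave the same cDC1 and migratory cell order, at 195 and 182 CPM, below the 200.4 CPM of the unnamed cluster 25. Tapbp ranged 5.00-fold, from 75.1 CPM in T/NK cluster 13 to 376 CPM in macrophage cluster 21. Nlrc5, the transactivator, had the widest range, 8.75-fold, from 25.95 CPM in macrophage cluster 15 to 227 CPM in T/NK cluster 7. Erap1 was highest in T/NK clusters 24 and 23 (66.4 and 65.1 CPM) and lowest in the granulocytic cluster 16 (19.6 CPM). Depth differed widely between clusters. The median UMIs per cell were 815 in cluster 16, 1225 in cluster 19, 1347 in cluster 7 and 1375.5 in cluster 8. They were 6575.5 in the cDC1 of cluster 6 and 10418 in cluster 15. The part of depth in these orders was not tested. Most neighbours in these orders were indistinguishable: the step between neighbouring clusters exceeded 1 SD between tumors for 0 of 19 pairs in H2-K1, 5 of 21 in H2-D1, 4 of 21 in B2m, 2 of 20 in Tap1, 3 of 21 in Tap2, 0 of 22 in Tapbp, 2 of 21 in Nlrc5 and 1 of 20 in Erap1.

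**Figure D1:**
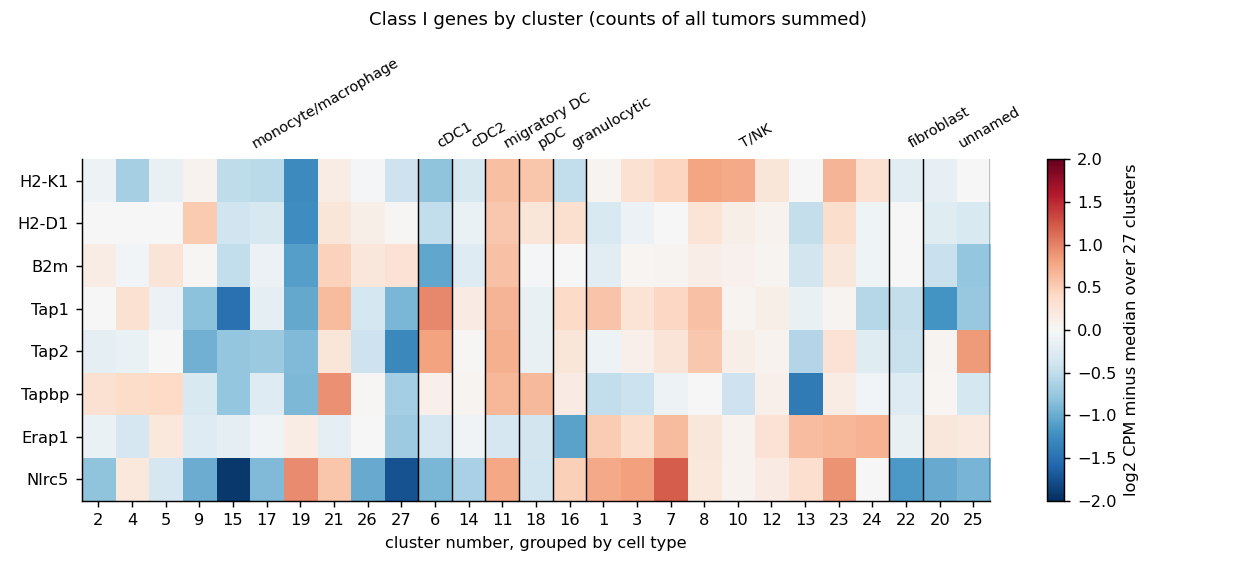
Level of each of the 8 genes (rows) in the 27 clusters (columns, grouped by cell type), as log2 CPM of the counts of all tumors summed, minus the gene's median over clusters; red is above and blue below that median. The cDC1 column is red for Tap1 and Tap2 and blue for H2-K1, H2-D1 and B2m, and macrophage cluster 19 is blue for every gene but Nlrc5 and Erap1.

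Per tumor, macrophages had 1534 ± 427 CPM of H2-K1 (SD, n = 48 tumors) and T/NK cells 2319 ± 643 (n = 47). H2-D1 was at 1574 ± 262 and 1623 ± 416 CPM, and B2m at 3248 ± 567 and 2874 ± 282 CPM, both closer between the populations than H2-K1 was. Nlrc5 was 71.8 ± 28.3 CPM in macrophages and 149 ± 45.8 CPM in T/NK cells, whereas Tapbp was 236 ± 56.8 and 169 ± 30.7 CPM. Tap1 in cDC1 reached 228 ± 54.8 CPM (n = 27 tumors with at least 20 such cells), against 114 ± 35.8 in macrophages and 142 ± 25.8 in T/NK cells. Granulocytic cells had a higher and more spread mean per tumor, 250 ± 129 CPM (n = 7). With all tumors summed they were at 156 CPM, below cDC1. These are descriptions, with no test between populations of the same tumors.

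The first comparison asked whether the class I genes differed between tumors of responder and non-responder strains. In macrophages, H2-D1, B2m, Tap1 and Tap2 were higher in responder strains, while H2-K1, the other classical heavy chain, did not pass the test. All reads were aligned to the B6 reference while the hosts may carry other MHC haplotypes, so for H2-D1, H2-K1 and the non-classical class I genes a class difference in transcript level and one in read alignment cannot be told apart. In sums over a cell group, a change in the makeup of the group and a change in the level per cell cannot be told apart; the shares of the macrophage clusters moved with treatment and class. Cluster 26 made up 30.6% of responder isotype, 27.6% of responder aPD1, 24.4% of non-responder isotype and 23.3% of non-responder aPD1 macrophages, and cluster 2 made up 22.7%, 31.3%, 23.8% and 27.6% of the same groups.

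For H2-D1, the responder isotype tumors ran from 1449 to 1924 CPM with a median of 1650 and the non-responder isotype tumors from 1023 to 1608 with a median of 1488. Under aPD1, responder tumors ran from 1555 to 2089 CPM (median 1748) and non-responder tumors from 1072 to 1882 (median 1219). The 2 classes overlapped under both treatments, with 6 of 10 isotype and 3 of 10 aPD1 responder tumors above every non-responder tumor. Under isotype, where 0.0253% of the genes tested had every responder tumor above every non-responder tumor, none of the 8 did. The difference, responder minus non-responder and averaged over treatments, was 0.36 on the log2 scale (SE 0.069, adjusted p = 0.000902, edgeR's quasi-likelihood test with Benjamini-Hochberg adjustment over 11873 genes). H2-D1 was 1 of 4 among the 8 genes past the threshold in this comparison, in which 6.52% of all genes tested were called and 4.1% were called higher.

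B2m encodes the light chain that pairs with both heavy chains. Its level was 2656 to 4058 CPM in responder isotype tumors (median 3158) and 2564 to 3588 in non-responder isotype tumors (median 2906), ranges that overlapped. Under aPD1 it was 3228 to 4637 CPM (median 3474) in responder and 2483 to 3086 (median 2966) in non-responder tumors. The aPD1 ranges did not overlap, each of the 10 responder tumors lying above all 9 non-responder tumors, which held for 0.278% of the genes tested. The class difference of B2m was 0.31 on the log2 scale (SE 0.065, adjusted p = 0.00241 by edgeR with Benjamini-Hochberg adjustment).

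Tap1, the first subunit of the peptide transporter, ran from 66.5 to 166 CPM in responder isotype tumors (median 114) and from 49.7 to 164 in non-responder isotype tumors (median 87.3). With aPD1 the responder tumors were at 98.7 to 167 CPM (median 140.3) and the non-responder tumors at 49.3 to 101 (median 83.0), so that 9 of 10 responder tumors were above every non-responder tumor. Its class difference was the largest of the 8 genes, 0.59 on the log2 scale (SE 0.131, adjusted p = 0.00387). Tap2, the partner subunit encoded nearby, gave 58.6 to 150.2 CPM in responder and 57.4 to 122 in non-responder isotype tumors, and 77.9 to 127 against 59.0 to 95.3 CPM under aPD1. The Tap2 ranges overlapped under both treatments, and the class difference was 0.40 on the log2 scale (SE 0.113, adjusted p = 0.0227).

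The remaining 4 genes did not pass. Tapbp had a class difference of 0.26 on the log2 scale (SE 0.0986, adjusted p = 0.115), with aPD1 tumors at 174 to 299 CPM in responder and 157 to 227 CPM in non-responder strains. For Nlrc5 it was 0.45 (SE 0.169, adjusted p = 0.105), the second largest of the 8 but with a wide spread between tumors, 43.3 to 131 CPM in responder and 27.8 to 121 CPM in non-responder isotype tumors. Erap1 gave 0.10 (SE 0.0654, adjusted p = 0.414). H2-K1 gave 0.12 (SE 0.143, adjusted p = 0.72), its non-responder tumors covering 729.7 to 2480 CPM and its responder tumors lying inside that range at 1310 to 2119 CPM. All 8 differences were positive, with a median of 0.33, against a median of -0.00 over all genes tested.

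The difference could be read more closely by treatment, a split that was not planned. Among aPD1 tumors alone, 5 of the 8 genes were higher in responder strains, with a background of 6.41% of genes called and 4.33% called higher. B2m differed by 0.50 (adjusted p = 0.000808), H2-D1 by 0.49 (0.00201), Tap1 by 0.87 (0.00321), Tap2 by 0.61 (0.0174) and Tapbp by 0.47 (0.0358), all on the log2 scale and by edgeR. Nlrc5 had the second largest value, 0.71, at an adjusted p of 0.0622. In isotype tumors alone none of the 8 was called by edgeR, where 0.278% of all genes were, and 1 (H2-D1, 0.23) had an unadjusted p under 0.05. The difference between the class contrasts under aPD1 and isotype was tested as the interaction, which called none of the 8 and 0 of 11873 genes by edgeR, and 1 gene of all by DESeq2. The interaction values with an unadjusted p under 0.05 were those of Tap1 (0.56), Tapbp (0.42) and B2m (0.38), each with an adjusted p of 0.87 in edgeR's fit, and 0% of genes were called. The class difference is therefore not shown to depend on treatment.

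**Figure D2:**
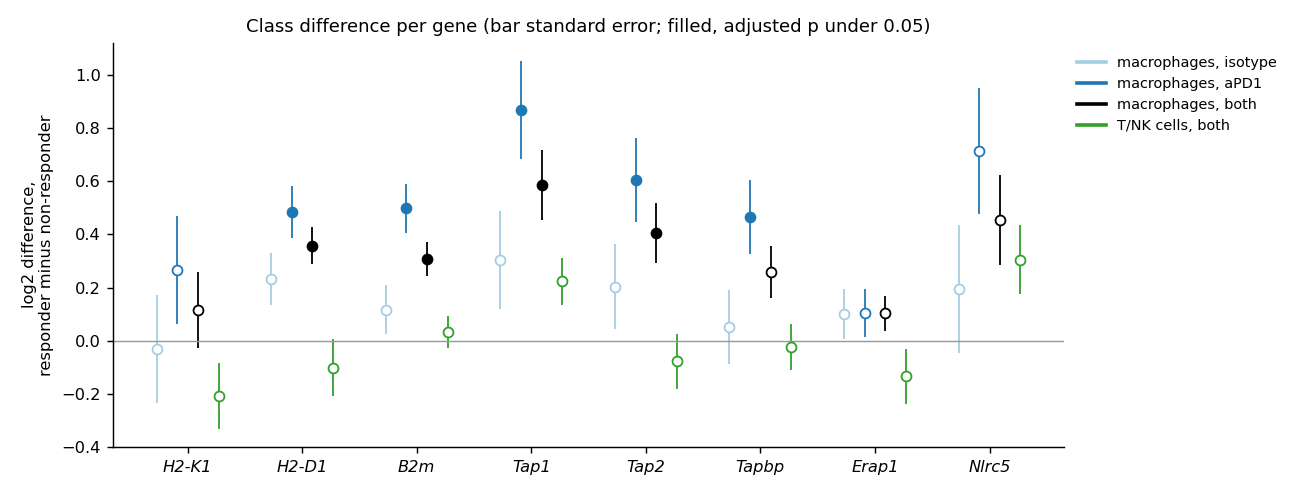
Log2 difference between responder and non-responder strains for each of the 8 genes in macrophages of isotype tumors (light blue), of aPD1 tumors (dark blue) and of both (black), and in T/NK cells of both (green); bars are standard errors and filled points have an adjusted p under 0.05. The aPD1 points run from Erap1 at 0.10 to Tap1 at 0.87, and the T/NK points lie between -0.21 and 0.31.

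The effect of a single aPD1 dose on the 8 genes in macrophages was not past the threshold in either class. This fit, like that of the interaction, left strain and pool out. It did not use the pairing of an isotype and an aPD1 tumor of 1 strain within a pool. Differences between strains thus stay in its spread. With the pool as a replicate block, 2 of all genes passed in responder strains and 1 in the interaction. In responder strains all 8 genes had a positive aPD1 minus isotype difference, with a median of 0.29 on the log2 scale, and none was called by edgeR's quasi-likelihood test, as was none of the 11873 genes (0%). Tap1 (0.39), B2m (0.30) and Tapbp (0.29) had an unadjusted p under 0.05 in edgeR's fit, and DESeq2 called 2 genes of all tested. In non-responder strains 1 of 8 differences was positive (Erap1, 0.04), the median was -0.10, and none had an unadjusted p under 0.05 or was called (0% of genes). By strain, the median difference over the 8 genes was 0.39 in CC001 hosts, 0.13 in CC002, 0.09 in CC079, 0.07 in CC075, 0.03 in B6, -0.13 in CC036, -0.15 in CC007 and -0.17 in CC080. CC079, a non-responder strain, thus lay among the responder strains in this order, with 7 of 8 genes positive.

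The class difference was also read within single clusters, which keeps the makeup of the population at the level of clusters fixed. Over 15 clusters there were 114 pairs of gene and cluster, of which 19 were called (16.7%), all higher in responder strains, against 2.12% of the 82367 gene and cluster pairs tested. The clusters share tumors and are not independent of each other. Tap1 was positive in 14 of 14 clusters and called in 5, with a median difference of 0.47 on the log2 scale. H2-D1 was positive in 13 of 15 clusters and called in 5, and B2m in 12 of 15 and called in 4. H2-K1 was positive in 7 of 15, called in none by edgeR, and had a median of -0.01. In the macrophage cluster 26, 6 genes were called by edgeR (7.38% of all genes were), from Tap1 at 0.83 (adjusted p = 3.24e-05) to B2m at 0.30, and this was the only cluster in which Nlrc5 passed (0.64, adjusted p = 0.0116). Outside macrophages, H2-D1 was higher by 0.52 in cDC1 (cluster 6, adjusted p = 0.00096 by edgeR, 11 responder and 13 non-responder tumors, 0.362% of genes called), and B2m was higher by 0.28 in type 2 conventional dendritic cells (cluster 14, adjusted p = 0.0252, 0.501% of genes called).

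In T/NK cells no class difference passed for any of the 8 genes by edgeR, with 2.08% of genes called, and 3 of 8 differences were positive (median -0.05). H2-K1 was lower in the sums of responder strains by value, at 1590 to 2751 CPM (median 2235) against 1501 to 4134 CPM (median 2746), ranges that overlapped. Its log2 difference was -0.21, and within pools 8 to 12 alone the direction was reversed (0.28). Tap1 (0.22, adjusted p = 0.191) and Nlrc5 (0.31, adjusted p = 0.252) had an unadjusted p under 0.05 in edgeR's fit. With the pool as a replicate block Nlrc5 was called (0.34, adjusted p = 0.00824), as were 286 of all genes. Response class is constant within a strain, and in counts summed per strain (3 against 3) edgeR called 3 of all genes. The summed level of the 7 macrophage markers in the T/NK sums had medians of 464 to 1119 CPM over the 4 class and treatment groups, highest in non-responder aPD1 tumors, whereas the 7 T/NK markers in the macrophage sums had medians of 4.10 to 7.74 CPM over the same groups. Their part in these values was not tested.

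The strength of the class comparison was limited by the 3 strains in each class. When each strain was reduced to its mean, the exact two-sided permutation test of 3 against 3 strains gave p = 0.1, the smallest it allows, for H2-D1, B2m and Tap1 (adjusted p = 0.267), with differences of 0.32, 0.26 and 0.59. The p values were 0.2 for Tap2, 0.3 for Tapbp, 0.4 for Erap1, 0.5 for Nlrc5 and 0.7 for H2-K1 in the same exact test. Summing tumors to 1 sample per strain (3 against 3), edgeR called none of the 8 genes and 3 of all genes, against 774 with tumors as units. Leaving out 1 strain at a time, H2-D1 and B2m kept their calls in all 6 fits, and the number of the 8 called moved from 4, with 774 of all genes, to 2 without CC075 (794 of all genes) or without CC079 (620 of all genes) and to 6 without CC001 (939 of all genes). Tap1 lost its call without CC075 (0.45, adjusted p = 0.0513) and without CC079 (0.42, adjusted p = 0.0553). Tap2 lost its call without CC002 (0.34, adjusted p = 0.0971), CC075 (0.30, adjusted p = 0.151) or CC079 (0.31, adjusted p = 0.15). H2-K1 turned on 2 strains: it was higher in responder strains without CC080 (0.51, adjusted p = 0.00624), and its value was -0.17 (adjusted p = 0.306) without CC036. With the pool as a replicate block Nlrc5 was called as well (0.54, adjusted p = 0.00669), making 5 of 8, with 1038 of all genes called. Within pools 1 to 5 no gene of the 8 was called by edgeR (304 of all genes were), and within pools 8 to 12 the number was 3 (327 of all genes were).

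Other genes of the pathway were counted by role, beside 4.1% of all genes called higher and 2.42% called lower in the class difference in macrophages. Of 5 genes for the interferon-inducible proteasome subunits and the PA28 activator, 3 were higher in macrophages of responder strains: Psmb8 (0.45, adjusted p = 0.00253), Psmb9 (0.44, adjusted p = 0.00329) and Psme1 (0.31, adjusted p = 0.0078). Of 4 further assembly factors, the tapasin homolog Tapbpl passed (0.45, adjusted p = 0.0106), and the chaperone list as a whole had a median of -0.05. None of the 6 other peptidases and none of the 9 promoter factors was called by edgeR. Of 13 interferon signalling genes, Irf8 was higher (0.33, adjusted p = 0.00429), with a list median of 0.09. Of the 11 non-classical class I genes 10 were tested, of which 5 were higher (H2-Q7, H2-T22, H2-T23, H2-Q6 and H2-M3, 0.43 to 0.97) and 1 lower (H2-Q10, -2.34, adjusted p = 1.33e-10), all under the limit of alignment to the B6 reference given above. In T/NK cells the 4 class I receptor genes tested, Cd8a, Cd8b1, Klrc1 and Klrd1, all passed the test and were higher in responder strains (edgeR adjusted p of 0.00014 to 0.00287), with a median of 1.05 (0.859% of all genes were called higher there). These genes mark CD8 and NK subsets, so the makeup of the T/NK sums and the level per cell cannot be told apart. No proteasome, chaperone, trimming, promoter or interferon signalling gene was called by edgeR in T/NK cells. Of the non-classical class I genes, H2-Q7 was higher there (0.51, edgeR adjusted p = 0.000589) and H2-Q4 lower (-0.68, edgeR adjusted p = 0.00136). In T/NK cells 1.22% of all genes were called lower. Both genes fall under the same limit of alignment.

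Because the heavy chain genes are polymorphic and all reads were aligned to the B6 reference, levels were then given by host strain. All 8 genes differed between the 8 strains in macrophages (edgeR's quasi-likelihood F test with treatment as covariate), where 51.3% of 12510 genes did. H2-K1 had the largest F, 16.7 (adjusted p = 6.99e-09, rank 227 of all genes), followed by Nlrc5 at 11.6 (adjusted p = 1.03e-06) and Tap1 at 9.10 (adjusted p = 1.38e-05). H2-D1 (5.32, adjusted p = 0.00105), B2m (4.78, adjusted p = 0.00217) and Erap1 (3.30, adjusted p = 0.0168) had the smallest. Each of the 48 fits without 1 tumor kept all 8 calls. In isotype tumors alone 5 of the 8 were called, with 882 of all genes.

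CC036 hosts had the lowest H2-K1. The 3 isotype tumors were at 787, 898 and 1187 CPM and the 3 aPD1 tumors at 729.7, 746 and 883 CPM. CC080 hosts had the highest, at 1592, 2454 and 2480 CPM with isotype and 2145, 2295 and 2345 CPM with aPD1. Every CC080 tumor was above every CC036 tumor, which held for 1.32% of the genes tested. Mean levels of H2-K1 were 872 ± 169 CPM in CC036 (SD, n = 6), 1132 ± 202 in CC007 (n = 4), 1473 ± 154 in CC079, 1498 ± 272 in CC001 (n = 8), 1611 ± 243 in B6, 1644 ± 211 in CC002, 1706 ± 206 in CC075 and 2218 ± 330 in CC080. In this order the strains from CC079 to CC075 lay within 1 SD of their neighbours. Against B6 hosts, CC036 was lower by 0.97 on the log2 scale (adjusted p = 2.35e-06, edgeR), whereas CC080 (0.43, adjusted p = 0.063) and CC007 (-0.53, adjusted p = 0.11) were not past the threshold.

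H2-D1 had another order of strains. Its lowest levels were in CC080 (1234 ± 196 CPM, n = 6, tumors at 1023 to 1608) and CC036 (1299 ± 201 CPM, tumors at 1072 to 1571), and the other 6 strains had means of 1590 to 1728 CPM. CC080 therefore combined the highest H2-K1 with the lowest H2-D1. Both strains were lower than B6 for H2-D1, CC036 by 0.46 and CC080 by 0.49 on the log2 scale, in edgeR's test.

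Tap1, Tap2, Tapbp and Nlrc5 were lowest in CC079 hosts. Nlrc5 in the 6 CC079 tumors ran from 27.8 to 42.3 CPM, all below the lowest tumor of any other strain (43.3 CPM), which held for 0.0639% of the genes tested. Their mean was 36.7 ± 5.28 CPM against 84.0 ± 21.6 in B6 and 111 ± 18.9 in CC075, the strain with the highest mean. Tap1 had a mean of 65.7 ± 15.9 CPM in CC079 and near 150 CPM in B6 and CC075 (150.3 ± 18.7 and 149.8 ± 17.2). B2m was highest in CC075, at 4085 ± 498 CPM, and lowest in CC079, at 2718 ± 214 CPM. Erap1 varied least, with strain means of 35.03 to 44.8 CPM.

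Against B6, CC079 was lower in 6 of the 8 genes, where 14% of all genes were called lower: Tap1 (-1.26, adjusted p = 9.4e-06), Nlrc5 (-1.25, adjusted p = 1.02e-05), Tapbp (-0.88), Tap2 (-0.86), B2m (-0.46) and Erap1 (-0.30). CC036 was lower in 5 (3% of all genes called lower), namely H2-K1, Tap1 (-0.81), Tapbp (-0.57), H2-D1 (-0.46) and Erap1 (-0.39). CC001 was lower in 3 (8.54% called lower), with Tapbp at -0.64, Tap2 at -0.53 and Erap1 at -0.30. CC080 was lower in 3 (1.91% called lower), H2-D1, Tap2 (-0.62) and Tapbp (-0.60). In CC002, CC007 and CC075 none of the 8 was called by edgeR, where 5.84%, 1.13% and 4.34% of all genes were. None of the 8 genes was called higher than B6 in macrophages in any strain by edgeR, and all 7 comparisons share the same 6 B6 tumors. B6 tumors were in pools 6 to 8, which held no tumor of CC001, CC002, CC075, CC079 or CC080. Pools link these 5 strains to B6 only through other strains. The comparisons with B6 left pool out, so in them strain and library differences cannot be told apart for these 5 strains. With the pool as a replicate block, 1581 of all genes differed between strains, against 6412 without it, and 6 of the 8 genes kept the strain difference, the exceptions being Tapbp (adjusted p = 0.0509) and Erap1 (adjusted p = 0.296).

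**Figure D3:**
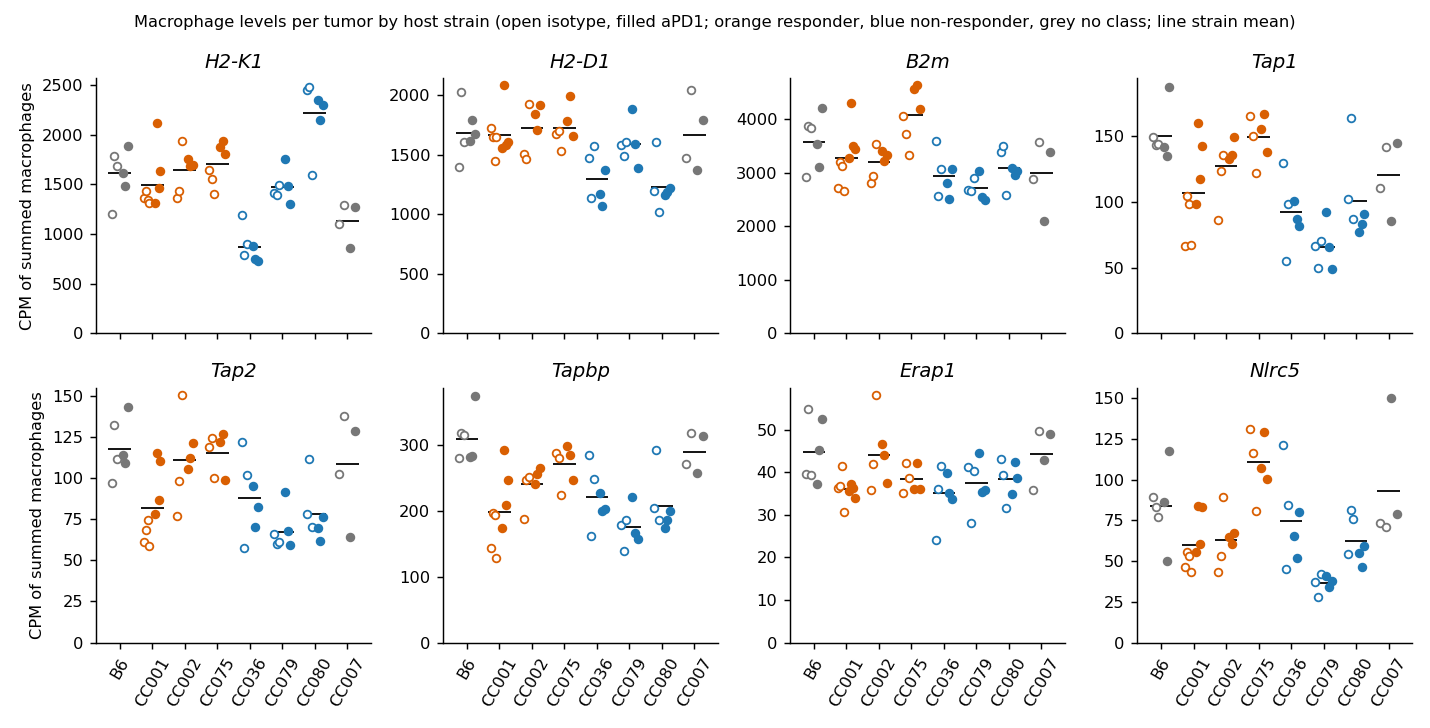
CPM of each of the 8 genes in the summed macrophages of each tumor (y axis, from 0) by host strain (x axis); open circles are isotype and filled circles aPD1 tumors, orange responder, blue non-responder and grey strains without a class, and lines are strain means. H2-K1 is highest in CC080 and lowest in CC036, H2-D1 is lowest in those same strains, and Nlrc5 and Tap1 are lowest in CC079.

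Strains were also compared in other cells. In T/NK cells 3 of the 8 genes differed between strains (24.9% of genes called): H2-K1 (F = 16.6), H2-D1 (8.64) and Nlrc5 (7.49). CC079 T/NK cells were higher than those of B6 hosts in H2-K1 (0.64 on the log2 scale) and H2-D1 (0.66) and lower in Nlrc5 (-0.62), with 8.5% of genes called. The CC079 tumors had 29 to 190 T/NK cells each and the B6 tumors 35 to 560. CC080 was higher than B6 in H2-K1 (0.57) and lower in Nlrc5 (-0.62), with 1.28% called. In cluster 20, 4 genes differed (34.8% of genes called), Nlrc5 (F = 7.19), H2-K1 (5.44), Tap1 (3.32) and H2-D1 (3.04), and none of the 8 was called against B6 in any strain by edgeR, where 0% (CC002, CC007 and CC080) to 6.43% (CC001) of all genes were. Whether the strain effect differed between cell groups was not tested for single genes.

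The ratio of H2-K1 to H2-D1 counts within a tumor needs no scaling between tumors. It was taken as a log2 value with 1 count added to each gene and is compared only between tumors. In macrophages it was 0.84 ± 0.18 in CC080 (SD, n = 6, tumors at 0.62 to 1.03), -0.58 ± 0.23 in CC036 and -0.56 ± 0.12 in CC007, and strain means of the other 5 strains lay between -0.16 and -0.02. No CC080 tumor overlapped a tumor of another strain. The strains differed with F = 51.5 (p = 1e-05, the smallest that 100000 permutations can give, adjusted p = 1.5e-05, permutation test), and the range of the strain means was 1.43 against a spread within strains of 0.146. In T/NK cells CC080 was again highest at 1.15 ± 0.18, and CC007 (-0.10) and CC036 (0.13) again lowest, with the others at 0.45 to 0.56 (F = 19.99, permutation p = 1e-05). Among single clusters with enough tumors, 7 are parts of the macrophage sum and 2 of the T/NK sum. The migratory dendritic cells (cluster 11) and the type 2 conventional dendritic cells (cluster 14) are in neither sum, and there too CC080 was highest, 0.80 and 0.99 above the mean of the 5 other strains, with CC036 and CC007 the lowest pair. These cells come from the same tumors.

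Cluster 20 had a narrower range of this ratio, from -0.04 in CC036 to 0.32 in CC002, and CC080 was not set apart, at 0.23 ± 0.04 (n = 5). CC007 had only 1 tumor with enough cells of cluster 20. Its ratio in cluster 20 and its paired value below, the lowest at -0.57, rest on that tumor. The strains still differed there (F = 4.31, permutation p = 0.0022). Taking the macrophage value minus the cluster 20 value of the same tumor, CC080 was at 0.66 ± 0.13 (n = 5) and every other strain was negative, from -0.57 to -0.22 (41 tumors, F = 20.8, permutation p = 1e-05, the smallest that can be given). MC38 cells have 1 genotype in every host and host cells do not, but cluster 20 was not shown to be MC38 cells alone: the summed level of 7 macrophage markers in it had a median of 458 to 2102 CPM over the groups. By response class, the ratio in macrophages was -0.09 ± 0.07 for the means of the 3 responder strains and 0.05 ± 0.73 for those of the 3 non-responder strains (difference -0.14, exact permutation p = 0.9). That test cannot go below 0.1, so it could not pass the threshold. Host transcript level and the alignment of reads from other haplotypes to the B6 reference cannot be told apart in these counts.

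**Figure D4:**
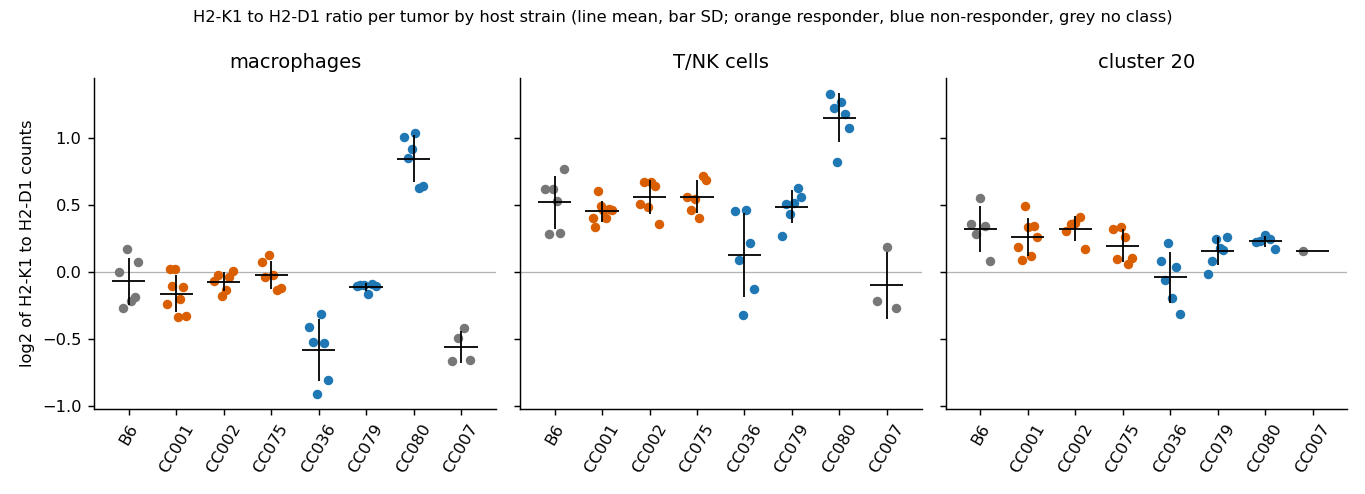
Log2 ratio of H2-K1 to H2-D1 counts (y axis) per tumor by host strain (x axis) in macrophages, T/NK cells and cluster 20; points are tumors, lines and bars the strain mean and SD, and colours the response class. CC080 is highest in macrophages (0.84) and T/NK cells (1.15) and is not set apart in cluster 20 (0.23).

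The 8 genes varied together between tumors to unequal degrees. Over the macrophage sums of the 48 tumors, Pearson's r of log2 (CPM + 1) was 0.91 between Tap1 and Tap2 and 0.91 between Tap1 and Tapbp. H2-K1 had r = 0.31 with H2-D1, 0.54 with B2m and 0.28 with Tap2. After the mean of each strain and treatment was taken off, H2-K1 reached 0.74 with H2-D1, 0.89 with B2m and 0.83 with Tap2, while Nlrc5 and Erap1 stayed near 0 with each other (0.17 before, 0.07 after). These are descriptions over tumors that share pools and depth. By the same measure the 2 genes nearest to each member, members left out, were Gbp3 (0.96) and Gbp6 (0.94) for Tap2, Gbp2 (0.95) and Fgl2 (0.92) for Tapbp, and Igtp (0.93) and Slamf8 (0.92) for Tap1. B2m was nearest to Iigp1 (0.87) and Themis2 (0.86), H2-D1 to Tifa (0.87) and H2-M3 (0.80), and Nlrc5 to Gsap (0.91) and Arid5b (0.90). H2-K1 was nearest to Adgrg5 (0.69) and H2-Q7 (0.67), and Erap1 to Ppm1m (0.65) and Atp6v0a2 (0.63). With strain and treatment means taken off, the nearest were Il18bp (0.89) and AW112010 (0.86) for H2-K1, Il18bp (0.90) and Tifa (0.85) for H2-D1, Iigp1 (0.92) and Gbp6 (0.88) for B2m, Gbp4 (0.92) and Slamf8 (0.87) for Tap1, Gbp3 (0.93) and Gbp4 (0.91) for Tap2, Gbp4 (0.93) and Gbp2 (0.91) for Tapbp, Irgm2 (0.89) and Stat2 (0.89) for Nlrc5, and Ppm1m (0.63) and Dusp12 (0.62) for Erap1.

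Interferon gamma (Ifng), the cytokine that induces this pathway, was then set against macrophage levels as a relation chosen after the data were seen, using Ifng CPM over all cells of a tumor. That measure moves with the share of T/NK cells in the sample. Over 48 tumors and 8 relations, Tap2 had r = 0.78 and rho = 0.79, Tap1 r = 0.76 and rho = 0.78, B2m r = 0.70 and rho = 0.68, and Tapbp r = 0.68 and rho = 0.76. The adjusted p was 2e-05 for each of these 4 by both measures, from 100000 permutations. The p values of this paragraph took no account of strain or pool, which tumors share. Nlrc5 gave r = 0.56 and rho = 0.62 (adjusted permutation p = 0.00014 and 4.8e-05) and H2-D1 r = 0.39 and rho = 0.46 (0.009 and 0.0015). For H2-K1 (r = 0.18, rho = 0.20, adjusted permutation p = 0.23 and 0.17) and Erap1 (r = 0.24, rho = 0.21, 0.11 and 0.17) the relation did not pass. Without the 2 tumors farthest from the median of Ifng, r was 0.78 for Tap2, 0.77 for Tap1, 0.64 for B2m, 0.75 for Tapbp, 0.73 for Nlrc5, 0.40 for H2-D1, 0.09 for H2-K1 and 0.28 for Erap1. Those were a CC007 aPD1 tumor in pool 6, with 0 Ifng counts, and a CC079 aPD1 tumor in pool 2.

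Within pools 1 to 5 and within pools 8 to 12 (20 tumors each), r was 0.80 and 0.69 for Tap2, 0.86 and 0.60 for Tap1, 0.71 and 0.64 for B2m, 0.77 and 0.64 for Tapbp, 0.83 and 0.61 for Nlrc5, 0.32 and 0.52 for H2-D1, 0.37 and 0.22 for H2-K1, and 0.35 and 0.29 for Erap1. Once the strain and treatment means were taken off, H2-K1 had r = 0.64 and rho = 0.58 (adjusted permutation p = 0.005 for r), and r = 0.59 without the same 2 tumors. On that scale B2m had r = 0.69, Tap2 0.66, Tap1 0.60, Tapbp 0.53 and H2-D1 0.52, with adjusted permutation p of 0.004 to 0.0097, while Nlrc5 (0.22) and Erap1 (0.15) did not pass (0.43 each). The Nlrc5 value rested on the same 2 tumors, without which r was 0.55. Tumors of the same strain and treatment were all in different pools, and pool means were not taken off. The differences left on that scale are therefore also differences between libraries.

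**Figure D5:**
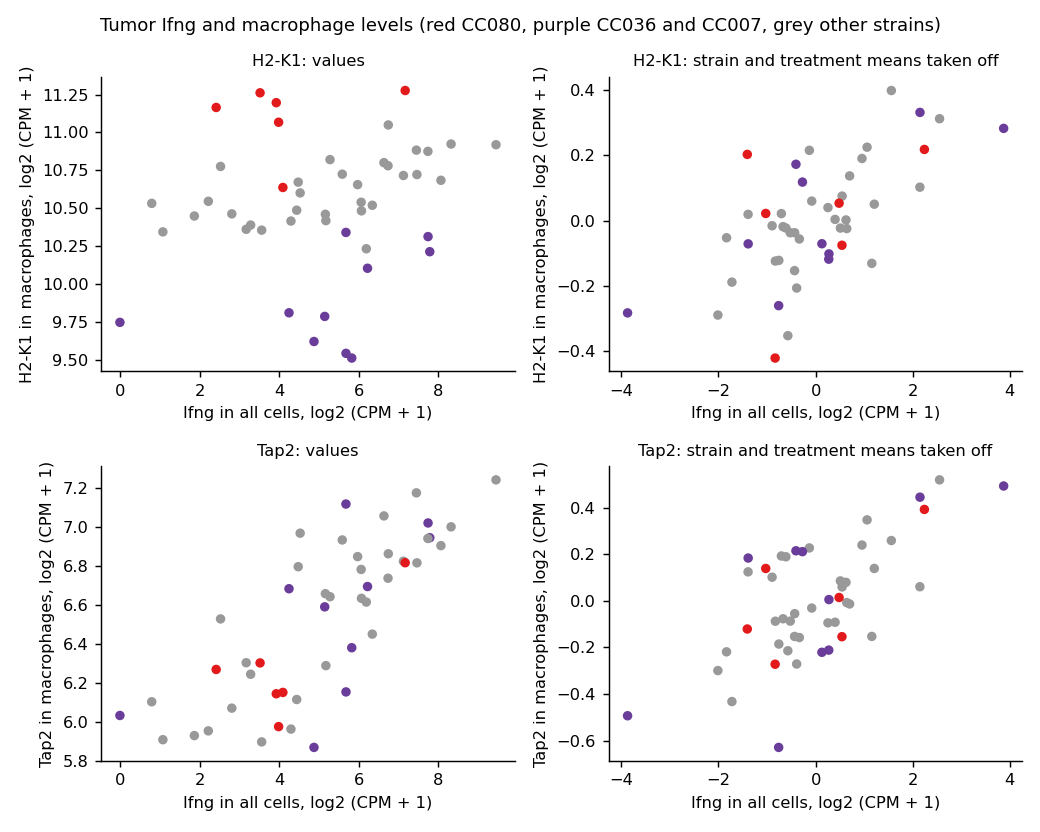
Level of H2-K1 (top) and Tap2 (bottom) in macrophages against Ifng in all cells of the same tumor, as log2 (CPM + 1) (left) and with the mean of each strain and treatment taken off (right); each point is a tumor, red for CC080, purple for CC036 and CC007, grey for the other strains. H2-K1 has r = 0.18 on the left, with the coloured strains above and below the rest, and r = 0.64 on the right, whereas Tap2 has r = 0.78 and 0.66.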

How the data were processed

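RNA was measured in single cells of 48 tumors with the 10x 5′ kit. The authors deposited raw UMI counts per gene and cell with a cluster number per cell; per the labels and methods they were made with Cell Ranger on GRCm38 (mm10), cells high in mitochondrial or ribosomal reads were removed, and Seurat 5.0.1 was used to cluster. Strain, treatment and pool were taken from the cell table, response class from the study's text. No doublet caller was run and the hashtag table was not used; 0 columns of per-sample values were left unused.

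Here, counts were summed per tumor over macrophage clusters, T/NK clusters or a single cluster, with at least 20 cells, and tested with edgeR 4.0.16 in R 4.3.3 (glmQLFit, TMM, filterByExpr, Benjamini-Hochberg over all genes tested, threshold 0.05). Class fits used 4 groups of class and treatment, with neither strain nor pool, and strain fits had treatment as a covariate. Ratios and correlations used permutations in scipy 1.17.1, with numpy 2.4.6 and pandas 2.3.3, and matplotlib 3.10.9 for plots. DESeq2 1.42.0, other scalings, no filter, the pool as block and omitted strains or tumors were alternatives. The members and lists were chosen with earlier results of these data known. Apart from the 8 members, genes named were those of the pathway lists past the threshold for the class difference in macrophages (at most 12) and the 2 nearest to each member by correlation. Named outside this rule, after their values were seen, were the T/NK receptor genes Cd8a, Cd8b1, Klrc1 and Klrd1, H2-Q4 in T/NK cells, Ifng, Ptprc and Shisal2b (for cluster 20), and H2-Q1, H2-Q2, Gm8909 and Gm11127 of the closing observation.

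Depth was 88816 to 17713491 UMIs per tumor, so low genes are imprecise in the smallest tumors (H2-K1 had 40 macrophage counts in the lowest); the spread between tumors includes this. Counts were also simulated with known changes, 100 genes by 0.5 and 100 by 1 on the log2 scale. Of those tested, the class fit (11776 genes) recovered 64.6% and 98%, with 11 false calls. The strain fit (12165 genes) recovered 80.7% of those tested among 200 genes changed by 1. For the class fit, simulated tumors were independent draws with no strain effect. Its false calls therefore do not give the error for a class that is constant within a strain. A pool is 1 library by the labels, which pairs tumors: same-pool tumors had a median correlation of deviations of 0.175 (72 pairs, 47 above 0.1) against -0.013 for other pairs. Tumors carried separate animal identifiers in the cell table, except 1 identifier on 2 CC080 tumors, which an alternative left out. Windows shared between genes were counted on the annotated transcripts, and promoter motifs on RefSeq promoter sequences.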

Additional observations from a re-analysis of the deposited data

Results flagged for a closer look

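Of 86 groups of tumors examined for 1 value far from the rest, 4 held one; chance flags about 1 in 20 groups. Erap1 in macrophages was 58.1 CPM in a CC002 isotype tumor of pool 12 (125 macrophages), with the next of the 10 responder isotype tumors at 42.3 CPM. H2-D1 in T/NK cells was 3429 CPM in a CC079 aPD1 tumor of pool 1 (29 T/NK cells), with the next of the 9 non-responder aPD1 tumors at 2188 CPM. Tapbp in T/NK cells was 241 CPM in a CC079 aPD1 tumor of pool 2 (68 T/NK cells), with the next at 183 CPM. The log2 H2-K1 to H2-D1 ratio in macrophages was -0.17 in a CC079 isotype tumor of pool 1, with the next of the 6 CC079 tumors at -0.10, a small step that stands out because the other 5 lay close together.

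The strain difference of the H2-K1 to H2-D1 ratio itself differed between macrophages and cluster 20 of the same tumors, by a permutation test of the paired difference over strains. The strain means of that difference spanned 1.23 on the log2 scale, with CC080 at the top and CC007, with 1 tumor, at the bottom.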

How the results depend on the processing

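Most values kept their direction and their side of the threshold under the alternatives (other scalings, DESeq2, no filter, small or shared-animal tumors left out, subsets of pools, treatments or strains). The cause of each change below was not tested.

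In macrophages, 0 of the 8 genes differed by class within pools 1 to 5 (304 of all genes called), in counts summed per strain (3 genes) or in isotype tumors alone (33 genes); pools 8 to 12 called 327 genes. H2-K1 was -0.23 in pools 1 to 5 and -0.031 in isotype tumors. Leaving out each strain gave 2 to 6 genes and H2-K1 at -0.17 to 0.51. Treatment values near 0 changed sign: Erap1 in responder strains was -0.0065 by library size; the Erap1 interaction was -0.054 by library size, -0.0095 with DESeq2 size factors, -0.010 with no filter, -0.023 without the CC080 pair that shares an animal identifier, and -0.052 to 0.043 with each strain left out; H2-K1 in non-responder strains was 0.00070 with no filter, 0.041 without that pair and -0.075 to 0.047 with each strain left out, and Tap1 and Tap2 there were -0.31 to 0.069 and -0.26 to 0.033. DESeq2 called 2 genes of all for aPD1 in responder strains and 1 for the interaction.

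In T/NK cells the class difference called 234 genes with no filter (Tapbp 0.016) and 3 genes summed per strain (Tapbp 0.016). In pools 8 to 12 it called 34 genes (H2-K1 0.28, H2-D1 0.092, Tap2 0.17, Tapbp 0.047). In pools 1 to 5 it called 1 of the 8. Without the count over all genes beside it, that call is not read as a result. B2m was -0.022 by library size. Each strain left out gave 0 to 2 of the 8, 95 to 298 genes, B2m at -0.017 to 0.079, H2-D1 -0.24 to 0.18, Tap2 -0.18 to 0.094, Tapbp -0.11 to 0.051 and Erap1 -0.21 to 0.0023.

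Strain differences held for 5 of the 8 (882 genes) in isotype tumors alone, 3 (2109 genes) in T/NK cells and 4 (3192 genes) in cluster 20, the T/NK and cluster 20 fits chosen after seeing the data. With the pool as replicate block, strain differences fell to 1581 genes, the T/NK class difference called 1 of the 8 and 286 genes, aPD1 in responder strains 2 genes and the interaction 1; the other changes under the block stand in the report. Depth limits the smallest tumors, and each class rests on 3 strains.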

Other observations

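A group of class I genes and gene models outside the 8 members (H2-Q1, H2-Q2, H2-Q10, Gm8909 and Gm11127, chosen after their values were seen) had unequal levels over the strains in macrophages. Their summed level was 2.12 CPM in B6, 2.31 in CC001, 1.55 in CC002 and 2.84 in CC075 hosts, as means over tumors. It was 38.0 CPM in CC036 (tumors at 30.5 to 50.4), 64.0 in CC080 (53.2 to 76.0), 104 in CC079 (83.3 to 143) and 201 in CC007 (43.0 to 342). The genes were chosen for this pattern, so the order of the strains is a description and was not tested. In these strains response class and host MHC region cannot be told apart, and whether these reads came from these genes or from other host alleles was not tested.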
